A study of Mus musculus with 18 samples.

Results

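The genes described here encode potassium channels and their auxiliary subunits. They are the rows of the 3 deposited tables (Brain, Retina and Choroid) whose symbol is Kcn, 1 or more letters and a number, with Kcnj8, Kcnj10, Kcnj13 and Kcnq1 left out. The rule found 72 genes among 14411 genes listed in any table. Brain listed 68 of its 13957 genes, Retina 52 of 12827 and Choroid 6 of 7569. A table listed a gene when its raw value reached 50 in all 3 libraries of at least 1 fraction, so a potassium channel gene below that level in a tissue was not analysed here. RefSeq holds 88 mouse symbols of this form, and the 16 that no table lists were not analysed here either.

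The mice carried Cdh5(PAC)-cre/ERT2+ and NuTRAP+ and were induced with tamoxifen, and all 6 groups shared this genotype and treatment. Cdh5(PAC)-cre/ERT2 is a Cre recombinase that tamoxifen activates and that the promoter of the endothelial adhesion gene Cdh5 drives. After recombination NuTRAP adds GFP to a protein of the large ribosomal subunit, so that an antibody against GFP can pull tagged ribosomes and their RNA out of a tissue homogenate (translating ribosome affinity purification, TRAP). The 6 groups were Brain Input, Brain Positive, Retina Input, Retina Positive, Choroid Input and Choroid Positive, with 3 libraries each. Positive is the RNA on the beads and Input is homogenate set aside before the antibody was added. The labels give neither age nor the number of animals behind a library. Nothing says that the 3 libraries of a group came from separate animals, so the p-values speak of variation among libraries, some of which may be technical.

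Potassium channels let potassium leave or enter a cell along its electrochemical gradient and so set the resting potential and end electrical signals. Voltage-gated subunits (Kcna, Kcnb, Kcnc, Kcnd, Kcnf, Kcng, Kcnh, Kcnq, Kcns and Kcnv) open when a membrane depolarises and shape the firing of neurons. Inward rectifiers (Kcnj) and 2-pore-domain channels (Kcnk) hold a cell near its resting potential, and calcium- or sodium-activated channels (Kcnma, Kcnn and Kcnt) open when those ions rise inside the cell. Kcnu1, a relative of Kcnma1 that opens with voltage and alkaline pH, is counted in the same class. Auxiliary subunits (Kcnab, Kcne, Kcnip and Kcnmb) form no pore and change how the others open or reach the membrane. In vessels, inward rectifiers and calcium-activated channels are known for hyperpolarising endothelial cells, a signal that spreads to the muscle of the vessel wall.

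The library totals over listed genes were 28128866 to 43219831 estimated counts for Brain Input, 31111437 to 40112343 for Brain Positive, 20915469 to 36157140 for Retina Input and 12325658 to 26069649 for Retina Positive. Choroid was shallower, with 2018126 to 10031274 in Input and 713733 to 2717264 in Positive. Cdh5, Pecam1 and the other 8 markers of an endothelium list were higher in Positive in each tissue (10 of 10, edgeR adjusted p under 0.05). Their summed level as CPM (counts scaled to library size) ran from 150.6 to 179.3 in Brain Input and from 5188 to 5767 in Brain Positive. In Retina it ran from 93.5 to 114.5 in Input and was 2617, 2769 and 5307 in Positive, so Retina Positive replicate 3 stood apart from the other two. In Choroid it ran from 1479 to 2422 in Input and from 12850.0 to 14680.0 in Positive.

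Potassium channel genes made up 0.532% ± 0.0116 of all counts of Brain Input and 0.248% ± 0.0108 of those of Brain Positive (SD, n = 3, over listed genes). In Retina they made up 0.579% ± 0.0177 of Input and 0.435% ± 0.0429 of Positive, and in Choroid 0.0406% ± 0.0054 of Input and 0.0249% ± 0.0063 of Positive. The listed members together thus took a smaller share of the ribosome-bound RNA than of the tissue RNA in all 3 tissues. In each tissue the 3 Positive values lay below the 3 Input values. Choroid listed 5 of its 6 members through Input alone, which favours a smaller share in Positive, so its shares are given as a description.

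Sequence is shown for the start regions of 4 members of the small Brain group that was higher in Positive, because these genes rose in the comparison in which most of the family fell. The other 3 of that group are not shown: Kcnk6 has no entry, the Kcnn4 window lies inside the annotated gene, and Kcnk2 has 4 start sites. The Kcnn4 window held 1 set of the ETS letters searched, and the 4 Kcnk2 windows between them held ETS, SOX, AP-1 and CCAAT letters. Each is the 250 bases before the RefSeq start on the gene's own strand (GRCm38.p6). Capitals mark AGGAAG or its reverse complement CTTCCT, letters that ETS factors bind (ETS letters), and CCAAT or its reverse complement ATTGG, the letters bound by NF-Y. Other and shorter letters that ETS factors bind were not searched, so a window without these ETS letters may still hold an ETS site.
Kcne4, chr1:78816661-78816910, plus strand: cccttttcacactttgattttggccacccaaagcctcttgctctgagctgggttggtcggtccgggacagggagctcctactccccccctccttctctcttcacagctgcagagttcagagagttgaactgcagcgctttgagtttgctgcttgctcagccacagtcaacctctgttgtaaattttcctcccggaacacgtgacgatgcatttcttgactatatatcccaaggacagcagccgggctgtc
Kcnk5, chr14:20181783-20182032, minus strand: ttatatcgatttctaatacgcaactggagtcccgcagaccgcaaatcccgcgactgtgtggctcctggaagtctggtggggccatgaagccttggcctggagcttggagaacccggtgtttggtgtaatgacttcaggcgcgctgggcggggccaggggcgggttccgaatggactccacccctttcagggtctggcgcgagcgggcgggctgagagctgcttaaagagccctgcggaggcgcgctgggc
Kcna5, chr6:126535556-126535805, minus strand: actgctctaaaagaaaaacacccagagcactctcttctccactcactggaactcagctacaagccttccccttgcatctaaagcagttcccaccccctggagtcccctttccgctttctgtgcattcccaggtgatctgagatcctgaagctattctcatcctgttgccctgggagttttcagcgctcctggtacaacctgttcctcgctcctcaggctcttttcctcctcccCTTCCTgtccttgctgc
Kcnj2, chr11:111065914-111066163, plus strand: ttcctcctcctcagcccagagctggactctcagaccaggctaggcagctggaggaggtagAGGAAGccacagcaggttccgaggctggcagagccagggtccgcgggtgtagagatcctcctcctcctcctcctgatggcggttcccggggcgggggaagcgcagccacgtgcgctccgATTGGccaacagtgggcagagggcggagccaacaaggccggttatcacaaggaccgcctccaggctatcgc
The Kcna5 window held the ETS letters 1 time, and the Kcnj2 window held the ETS letters 1 time and 1 CCAAT box. Neither these ETS letters nor the CCAAT letters occurred in the Kcne4 or Kcnk5 window. Counted per gene, with at least 1 window holding the letters, 32.3% of 27025 genes had these ETS letters and 37.5% a CCAAT box. Among the potassium channel genes with an entry the shares were 40.0% (20 of 50) and 36.0% (18 of 50). Per window the shares over all 32851 were 29.5% and 33.8%. SOX letters stood in 16.5%, AP-1 letters in 4.46% and CRE letters in 1.55% of windows. SOX letters (ACAAAG), AP-1 letters (TGACTCA) and the CRE letters (TGACGTCA) were searched on both strands as well, and none of the 4 printed windows held them.

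In Brain nearly the whole family was lower in ribosome-bound RNA, and 7 genes were higher. Of 68 members, 7 were higher and 59 lower in Positive against Input (edgeR quasi-likelihood test, Benjamini-Hochberg adjusted p under 0.05 over all 13957 genes), against 38.3% of all genes higher and 39.7% lower. The median log2 fold change (Positive over Input) was -1.07 over the members and -0.02 over all genes. Of the 63 members that reached the listing minimum in both fractions, 6 were higher and 55 lower. Each of the 66 called members had all 3 Positive values on 1 side of all 3 Input values, as did 98.4% of all called genes in Brain.

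The fall ran through every class. Voltage-gated subunits had 28 of 30 members lower and 1 higher (median log2 fold change -1.13), and inward rectifiers 8 of 10 lower and 1 higher (median -1.12). Calcium- or sodium-activated channels had 7 of 8 lower and 1 higher (median -1.19), and auxiliary subunits 9 of 10 lower and 1 higher (median -0.88). The 2-pore-domain channels had 7 of 10 lower and 3 higher (median -1.02). Neuron markers moved the same way: all 10 of the list were lower, with a median of -1.20 and sums of 8558 to 9156 CPM in Input and 3550.0 to 4046 CPM in Positive. Oligodendrocyte markers were lower in 8 of 8, with sums of 5000.0 to 5598 CPM in Input and 901.9 to 1709 CPM in Positive. Of 8 astrocyte markers 6 were lower and 2 higher, and no marker of these 3 lists was at 0 in any library. Input and Positive libraries of 1 number share a homogenate, so the fall is one of share in the RNA on the beads. The part of these cells in the fall was not tested.

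**Figure D1:**
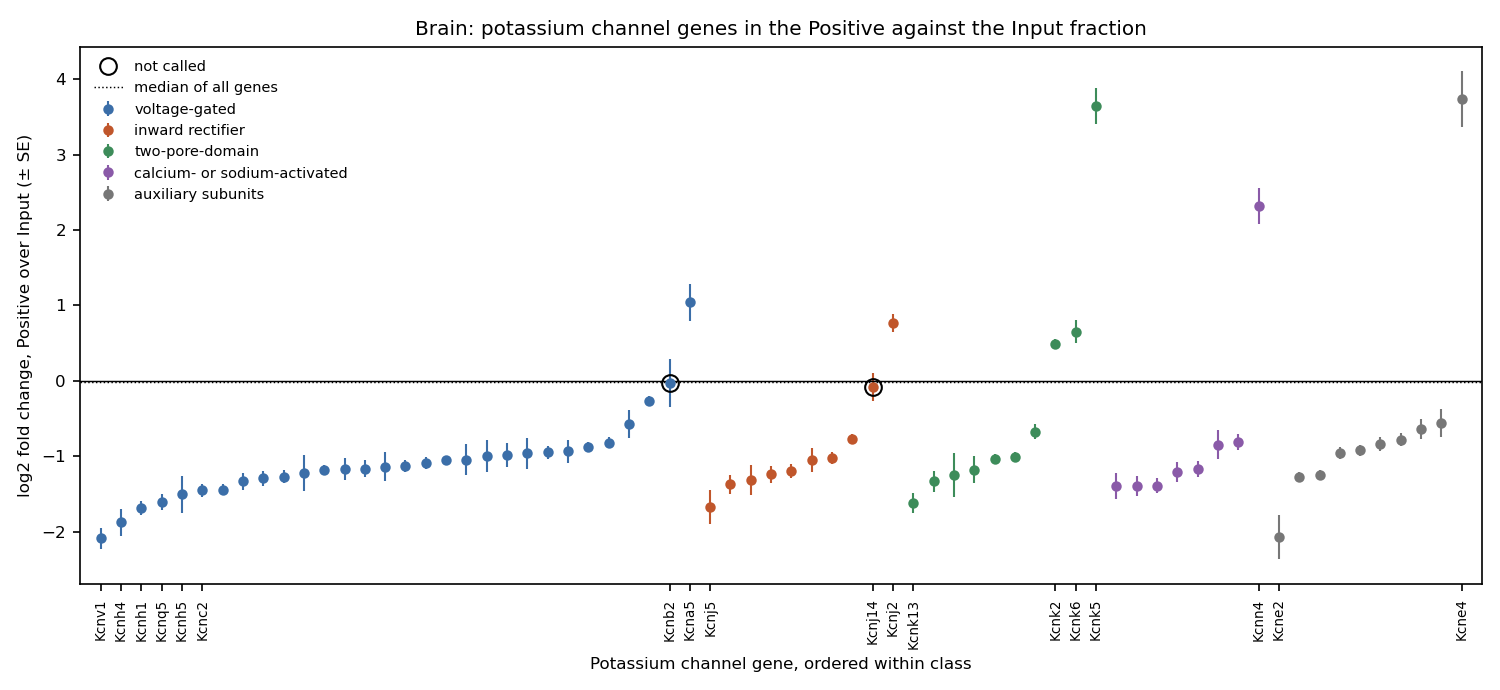
Log2 fold change of Positive over Input (vertical axis, ± SE) for the 68 potassium channel genes listed in Brain, ordered within 5 classes (colour). Nearly all points lie below 0 near -1, 7 lie above 0, and the ringed Kcnb2 and Kcnj14 did not pass the test.

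The 2 largest increases in Brain were 13.3-fold for Kcne4 and 12.5-fold for Kcnk5. Kcne4 encodes a single-pass auxiliary subunit that holds back voltage-gated and calcium-activated channels, and lies on chromosome 1 at 78816911 to 78820032. Its level was 3.22, 2.49 and 1.64 CPM in the Input libraries and 50.3, 26.2 and 19.5 CPM in the Positive libraries. All Positive values were far above all Input values, with Positive replicate 1 the highest. The log2 fold change was 3.73 ± 0.37 (SE, edgeR adjusted p = 7.53e-06).

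Kcnk5 (TASK2), on chromosome 14 at 20140057 to 20181782, encodes a 2-pore-domain channel that opens in alkaline medium. It stood at 1.99, 2.13 and 1.35 CPM in Input and 27.6, 24.0 and 16.4 CPM in Positive, again without overlap, and its log2 fold change was 3.64 ± 0.24 (edgeR adjusted p = 3.24e-07). Both genes were among the scarcest members of Brain Input per length of transcript, at ranks 60 and 63 of 68. In Positive they ranked 15 and 26, at 12.1 ± 6.10 and 6.65 ± 1.67 CPM per kb of exon (SD, n = 3).

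Kcnn4, on chromosome 7 at 24369826 to 24385212, encodes the intermediate-conductance calcium-activated channel known from endothelium. Its values were 1.10, 0.755 and 0.629 CPM in Input and 4.02, 4.46 and 3.66 CPM in Positive, and it was the least abundant member per length in Input. Brain listed it through the Positive fraction alone, which selects for a higher value there, and its log2 fold change of 2.32 ± 0.24 is given as a description. The small-conductance channel Kcnn3, which endothelium also uses, fell by 1.39 on the log2 scale, from 9.68 ± 0.538 to 3.68 ± 0.264 CPM (SD, n = 3).

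Kcna5 (Kv1.5), a voltage-gated subunit found in muscle and heart as well as vessels, was the single voltage-gated subunit that rose in Brain. The Input libraries held 8.91, 8.23 and 7.57 CPM and the Positive libraries 10.6, 16.6 and 23.4 CPM. The Positive values spread more than 2-fold and the lowest of them, replicate 1, lay just above the highest Input value. The log2 fold change was 1.04 ± 0.24 (edgeR adjusted p = 0.00265). Kcne4 and Kcna5 had the opposite order among the Positive libraries: replicate 1 was highest for Kcne4 and lowest for Kcna5.

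Kcnj2 (Kir2.1), the inward rectifier best known from endothelium and muscle, rose from 9.08, 11.0 and 9.50 CPM to 17.6, 17.6 and 15.0 CPM, a log2 fold change of 0.76 ± 0.12 (edgeR adjusted p = 0.000207). It was the one inward rectifier of 10 that rose. Kcnk6 (TWIK2), a 2-pore-domain channel of the vascular wall, rose from 5.31, 4.92 and 4.49 CPM to 6.65, 8.30 and 8.12 CPM (0.65 ± 0.15, edgeR adjusted p = 0.00248). Both were modest rises, of 1.70-fold and 1.57-fold.

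Kcnk2 (TREK1), a 2-pore-domain channel opened by stretch and lipids, was the most abundant of the 7 per length in both fractions. It held 62.1, 68.1 and 61.6 CPM in Input and 85.3, 95.1 and 88.9 CPM in Positive, and the groups did not overlap. Its log2 fold change was 0.49 ± 0.07 (edgeR adjusted p = 0.000111). Per length it was ranked 25 in Input, at 12.9 ± 0.727 CPM per kb, and 9 in Positive, at 18.2 ± 1.00 CPM per kb. It shares 604 exon bases with A430027H14Rik on the opposite strand, and the sources do not say whether the counting used strand, so its value may include reads of that gene.

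The 7 genes rose together with markers of endothelium and fibroblasts and with some mural cell markers. The part of these cells in the rises was not tested. All 10 endothelium markers were higher, with sums of 179.3, 150.6 and 160.4 CPM in Input and 5767, 5416 and 5188 CPM in Positive. All 6 fibroblast markers were higher, with sums of 124, 127 and 135 CPM in Input and 1551, 2334 and 1853 CPM in Positive. Of 7 mural cell markers 3 were higher and 3 lower, with sums of 185, 176 and 189.5 CPM in Input and 1203, 1638 and 1350.0 CPM in Positive. Positive replicate 1 had the highest endothelium sum and the lowest fibroblast and mural cell sums. Among the 7 genes, this library was the highest for Kcne4 and Kcnk5 and the lowest for Kcna5, Kcnk6 and Kcnk2. Kcnj2 was nearly level in Positive replicates 1 and 2, and Kcnn4 was highest in replicate 2. Positive replicate 2 had the highest fibroblast and mural cell sums. No marker of these lists was at 0.

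**Figure D2:**
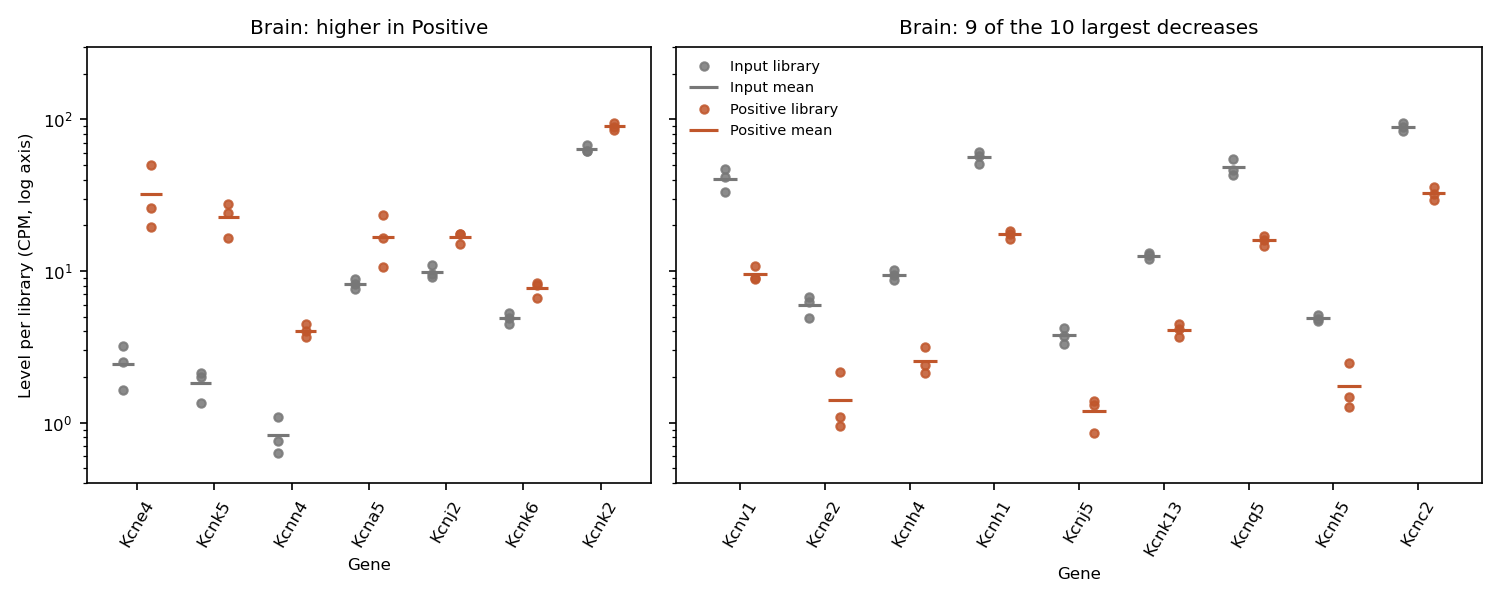
Level in each Brain library (points, CPM on a log axis, bars are means) of the 7 potassium channel genes higher in Positive (left) and of 9 of the 10 largest decreases (right). Input (grey) and Positive (orange) points do not overlap for any of the 16 genes, and Kcne4 and Kcnk5 show the widest gaps.

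The largest decreases in Brain ran from Kcnv1 (-2.09) and Kcne2 (-2.07) to Kcnc2 (-1.45) on the log2 scale. Kcnv1 (Kv8.1), a silent subunit that modifies other voltage-gated channels, stood at 33.1, 46.8 and 41.6 CPM in Input and 8.81, 9.05 and 10.8 CPM in Positive, and fell by 2.09 ± 0.14 on the log2 scale (edgeR adjusted p = 4.26e-07). The Input spread was wide, with replicate 1 the lowest, but its value was still more than 3 times the highest Positive value. Subunits of the ether-a-go-go group were among them. Kcnh4 fell from 8.71, 10.2 and 9.36 CPM to 2.13, 2.40 and 3.15 CPM (log2 fold change -1.88 ± 0.18), and Kcnh1 from 50.7, 60.6 and 57.0 CPM to 18.4, 16.4 and 17.6 CPM (-1.69 ± 0.09). Kcnh5 stood at 4.70, 5.10 and 4.80 CPM and 2.49, 1.26 and 1.47 CPM, but was listed through Input alone.

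Kcnq5, a subunit of the M current, which damps repetitive firing, fell by 3.04-fold. It went from 43.0, 55.1 and 46.6 CPM to 17.1, 14.6 and 16.1 CPM (log2 fold change -1.60 ± 0.11, edgeR adjusted p = 4.89e-07). Kcnc2 (Kv3.2), a subunit of fast-spiking neurons, went from 89.0, 94.1 and 83.3 CPM to 36.0, 29.5 and 32.2 CPM (-1.45 ± 0.09). The groups stood clear of each other for both genes.

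Other decreases lay outside the voltage-gated class. Kcnk13 (THIK1), the 2-pore-domain channel known from microglia, fell from 11.9, 12.7 and 13.1 CPM to 4.45, 3.66 and 4.17 CPM (log2 fold change -1.62 ± 0.13, edgeR adjusted p = 1.68e-06). Of 6 microglia and macrophage markers 5 were lower, with sums of 202.4 to 217.2 CPM in Input and 77.9 to 131.6 CPM in Positive. Kcne2, an auxiliary subunit abundant in choroid plexus, stood at 6.20, 4.92 and 6.76 CPM and 1.10, 0.954 and 2.16 CPM, and Kcnj5, a G protein-gated inward rectifier, at 4.22, 3.32 and 3.75 CPM and 1.40, 0.851 and 1.31 CPM. Brain listed Kcne2 and Kcnj5 through Input alone, as it did Kcnh5 and Kcnu1, so each of these 4 was below the listing minimum in at least 1 Positive library, and their values are given as a description.

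Per length of exon, the auxiliary subunit Kcnab2 was among the most abundant members in both Brain fractions. It ranked first in Input at 85.9 ± 2.75 CPM per kb and second in Positive at 35.7 ± 0.503, and its libraries held 462, 485 and 491 CPM in Input and 200.5, 201 and 196 CPM in Positive.

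The genes that led 3 other classes per length fell by 2.01-fold (Kcnk1), 2.36-fold (Kcnj4) and 2.61-fold (Kcnt1). The 2-pore-domain channel Kcnk1 held 124, 119 and 122 CPM in Input and 62.1, 57.6 and 62.4 CPM in Positive, or 54.5 ± 1.04 and 27.1 ± 1.21 CPM per kb. The inward rectifier Kcnj4 held 119.5, 122 and 110.1 CPM and 59.5, 42.1 and 47.3 CPM, or 54.4 ± 2.86 and 23.1 ± 4.13 CPM per kb. The sodium-activated channel Kcnt1 held 206, 205 and 218 CPM and 71.2, 75.5 and 93.8 CPM, or 22.1 ± 0.810 and 8.44 ± 1.26 CPM per kb. Kcnb2 and Kcnj14 did not pass the test in Brain. Kcnb2 had 3.02, 3.50 and 3.26 CPM in Input and 5.25, 2.32 and 2.14 CPM in Positive, and Kcnj14 had 4.35, 4.30 and 4.20 and 4.15, 4.85 and 3.12 CPM.

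In Retina most members did not pass the test, 17 were lower and 1 was higher. The background was 15.3% of the 12827 genes higher and 10.8% lower, and the members' median log2 fold change was -0.32 against -0.03 over all genes. All 18 called members were among the 45 that reached the minimum in both fractions. Of the 52 members, 24 had all Positive values below all Input values and 1 had them above, against 22.7% of all genes each way. The number called rests on the Input libraries: without Retina Input replicate 1, 2 or 3 it was 10, 5 or 10, all of them lower, and without Retina Positive replicate 3 it was 20.

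By class, 11 of 25 voltage-gated subunits were lower and 1 higher, 4 of 9 auxiliary subunits were lower, 1 of 8 inward rectifiers and 1 of 4 calcium- or sodium-activated channels were lower, and none of 6 2-pore-domain channels was called. Neuron markers were lower in 6 of 10 with a median of -0.32, and photoreceptor markers in 4 of 11. Markers of bipolar, amacrine and ganglion cells went the other way, with 3 of 9 higher and none lower (median 0.40), and sums of 1370.0 to 1438 CPM in Input and 1795 to 2177 CPM in Positive. The photoreceptor sums were 37290.0, 45720.0 and 46080.0 CPM in Input and 43650.0, 53160.0 and 32230.0 CPM in Positive, lowest in Positive replicate 3, the library with the highest endothelial sum. No marker of the 3 lists was at 0. Their part in the members' values was not tested.

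The one increase in Retina was Kcna5, which had also risen in Brain. Its libraries held 119.7, 113 and 108 CPM in Input and 151, 153 and 124 CPM in Positive, without overlap, and its log2 fold change was 0.33 ± 0.10 (edgeR adjusted p = 0.0426). The call was lost without Retina Input replicate 1, 2 or 3 or Positive replicate 1 or 2 (edgeR adjusted p = 0.0845, 0.138, 0.136, 0.0782 and 0.111). Without Positive replicate 3 the change was 0.43 (adjusted p = 0.00206), and Kcnk3 and Kcnmb2 also passed as higher. With all libraries Kcnmb2 stood at 3.52, 2.67 and 4.03 CPM in Input and 6.68, 8.84 and 3.38 CPM in Positive, with an adjusted p of 0.111.

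The largest decrease in Retina was in Kcnmb4, the neuronal beta subunit of the large-conductance calcium-activated channel. It fell from 19.3, 16.1 and 22.6 CPM to 8.21, 5.89 and 9.71 CPM, a log2 fold change of -1.27 ± 0.21 (edgeR adjusted p = 0.00362), and it was the single member beyond a log2 change of 1. It shares 355 and 693 exon bases with 2 genes on the opposite strand. Kcnt1 fell from 44.0, 36.1 and 32.4 CPM to 26.3, 18.3 and 25.1 CPM (-0.68 ± 0.17, adjusted p = 0.0203). The Kcnt1 call was lost without Retina Input replicate 1 or 2 (adjusted p = 0.084 and 0.0647).

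A-type and delayed-rectifier subunits of neurons were lower as well. Kcnd3 and Kcnd2 (Kv4) carry the A-type current. Kcnd3 fell from 100.1, 95.9 and 95.7 CPM to 63.8, 58.1 and 58.5 CPM (-0.69 ± 0.08), and Kcnd2 from 15.3, 20.2 and 19.8 CPM to 11.6, 12.5 and 11.5 CPM (-0.64 ± 0.15). Kcna1 fell from 43.8, 48.8 and 43.6 CPM to 29.8, 29.9 and 26.9 CPM (-0.65 ± 0.10), and its relative Kcna6 from 67.7, 71.8 and 62.7 CPM to 46.8, 53.9 and 45.0 CPM (-0.47 ± 0.10). In these 4 genes each Positive library lay below each Input library, and edgeR adjusted p ran from 0.000464 (Kcnd3) to 0.0169 (Kcnd2). The Kcnd2 call was lost without Retina Input replicate 2 or 3 or Positive replicate 1 (adjusted p = 0.0848, 0.0667 and 0.0512) and that of Kcna6 without Input replicate 2 (0.0571). Kcnc2 fell from 50.4, 47.0 and 54.0 to 38.5, 32.7 and 34.1 CPM.

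Kcnv2 (Kv8.2), a silent subunit of photoreceptors on chromosome 19 at 27322061 to 27337179, was the most abundant voltage-gated subunit of Retina per length. It fell from 702, 898 and 802 CPM to 535, 616 and 505 CPM (log2 fold change -0.54 ± 0.12, edgeR adjusted p = 0.015). All Positive values lay below all Input values. The call was lost without Retina Input replicate 2 or 3 or Positive replicate 1 (adjusted p = 0.0725, 0.053 and 0.055).

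The most abundant member per length in both Retina fractions was Kcnj14 (Kir2.4), an inward rectifier on chromosome 7 at 45816467 to 45824747. It had 270.1 ± 18.7 CPM per kb in Input and 212 ± 47.4 in Positive (SD, n = 3). Its libraries held 676, 753 and 772 CPM in Input and 625, 674 and 431 CPM in Positive, all Positive values below all Input values, but its adjusted p was 0.159. Positive replicate 3 was the lowest. Kcnv2 followed at 157 ± 19.2 and 108 ± 11.2 CPM per kb.

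The leaders of the other classes did not pass the test in Retina. Kcnab2 held 457, 475 and 472 CPM in Input and 505, 534 and 378 CPM in Positive (83.9 ± 1.70 and 84.7 ± 14.8 CPM per kb). Kcnk1 held 44.5, 42.4 and 42.3 CPM and 40.5, 40.4 and 44.9 CPM (19.3 ± 0.545 and 18.8 ± 1.14 CPM per kb), and Kcnn1 held 19.7, 21.1 and 25.6 CPM and 18.2, 17.5 and 14.9 CPM (4.82 ± 0.677 and 3.68 ± 0.378 CPM per kb). Kcne2 and Kcna5 came next per length in Input, at 43.0 ± 10.2 and 39.6 ± 2.12 CPM per kb, 2 neighbours that did not differ beyond their spread. The genes Kcnk5, Kcne4, Kcnn4 and Kcnk6, all higher in Brain Positive, were not listed in Retina.

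**Figure D3:**
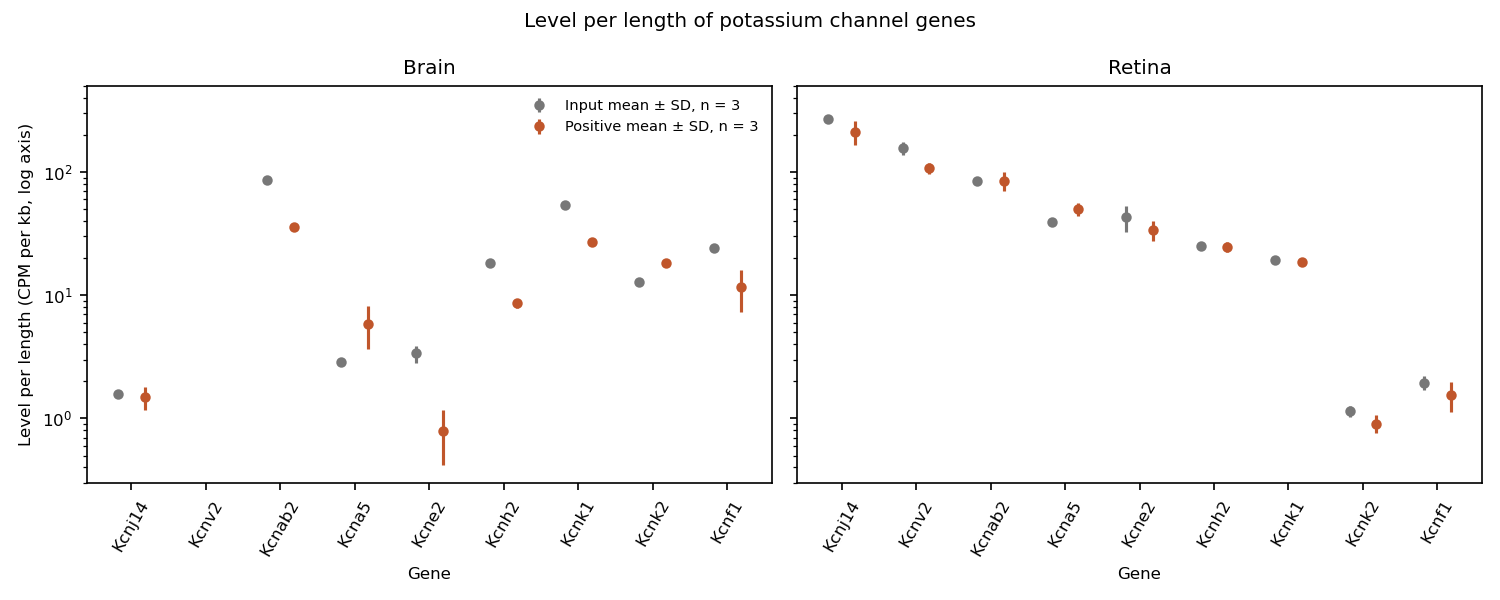
Mean level per length (CPM per kb of exon, log axis, error bars are SD over 3 libraries) of 9 potassium channel genes in Input (grey) and Positive (orange) of Brain (left) and Retina (right). Kcnj14 is among the low genes in Brain and the highest in Retina, Kcnk2 and Kcnf1 go the other way, and Kcnv2 was not listed in Brain.

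The fall from Input to Positive was smaller in Retina than in Brain for most shared members. Among the 48 listed in both tables, the Retina change minus the Brain change was called higher for 34 and lower for 2 (edgeR test of the difference in 12 libraries, adjusted over 12438 genes), against 28.9% and 20.0% of all genes. The median difference was 0.72 on the log2 scale over the members and 0.09 over all genes. These counts include members listed through Input alone in a tissue, which favours a fall there. Among them were Kcne2, Kcnh5 and Kcnj5 in Brain, all called higher. In Retina they included Kcnk2, called lower, and Kcnk4, called higher. The counts were not repeated without such members. Of the 43 shared members lower in Brain, 16 (37.2%) were also lower in Retina, and these were all 16 shared members lower in Retina. Kcna5 was higher in both tissues.

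The 6 largest positive differences belonged to genes that were lower in Brain Positive and did not pass the test in Retina. Kcne2 had 6.20 ± 0.964 CPM in Brain Input, 1.44 ± 0.683 in Brain Positive, 79.5 ± 19.2 in Retina Input and 63.0 ± 11.0 in Retina Positive (SD, n = 3, scaled over the 12 libraries), a difference of 1.76 ± 0.37 (edgeR adjusted p = 0.00209). Kcnh5 had 1.59 ± 0.35 and Kcnh1 1.52 ± 0.19, and the Kcnh1 libraries of Retina held 14.1, 13.2 and 13.8 CPM in Input and 11.6, 9.43 and 14.2 CPM in Positive. Kcnk4 (TRAAK) had 1.47 ± 0.30 and Kcnmb2 1.45 ± 0.41. Kcnj6, a G protein-gated inward rectifier, had 1.37 ± 0.28. In Retina, the libraries of Kcnh5 held 15.2, 14.5 and 9.33 CPM in Input and 14.7, 10.4 and 15.2 CPM in Positive and those of Kcnj6 6.57, 6.28 and 6.71 and 5.74, 6.06 and 7.88 CPM. Kcne2 was at 55.7, 81.5 and 90.6 CPM in Retina Input and 63.8, 67.8 and 47.3 CPM in Retina Positive, so the fractions of Kcnh1, Kcnh5, Kcnj6 and Kcne2 overlapped in Retina. Brain listed Kcne2 and Kcnh5 through Input alone, which bears on their differences. Kcnk4 had 8.88, 8.90 and 7.84 CPM in Brain Input, 3.29, 3.66 and 3.21 in Brain Positive, 2.46, 2.02 and 2.58 in Retina Input and 3.36, 2.53 and 1.71 in Retina Positive, and it shares 587 exon bases with Catsperz on the same strand.

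Kcnk2 and Kcnj2 went the other way. Kcnk2 rose in Brain and in Retina stood at 5.08, 6.24 and 5.77 CPM in Input and 5.16, 3.70 and 4.62 CPM in Positive, and the difference was -0.76 ± 0.16 (edgeR adjusted p = 0.00181). Retina listed Kcnk2 through Input alone. Kcnj2 in Retina stood at 7.28, 7.68 and 9.10 CPM in Input and 10.3, 8.76 and 8.40 CPM in Positive, and its difference was -0.53 ± 0.19 (adjusted p = 0.0397). When libraries of 1 replicate number were treated as a block this call was lost (adjusted p = 0.0623), which left 1 member lower. It was also lost when any one of these libraries was left out: Brain Input 1 or 3, Brain Positive 1 or 2, any Retina Input library, or Retina Positive 3, with adjusted p between 0.0548 and 0.182. The Kcna5 difference was -0.67 ± 0.29 with an adjusted p of 0.0734.

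**Figure D4:**
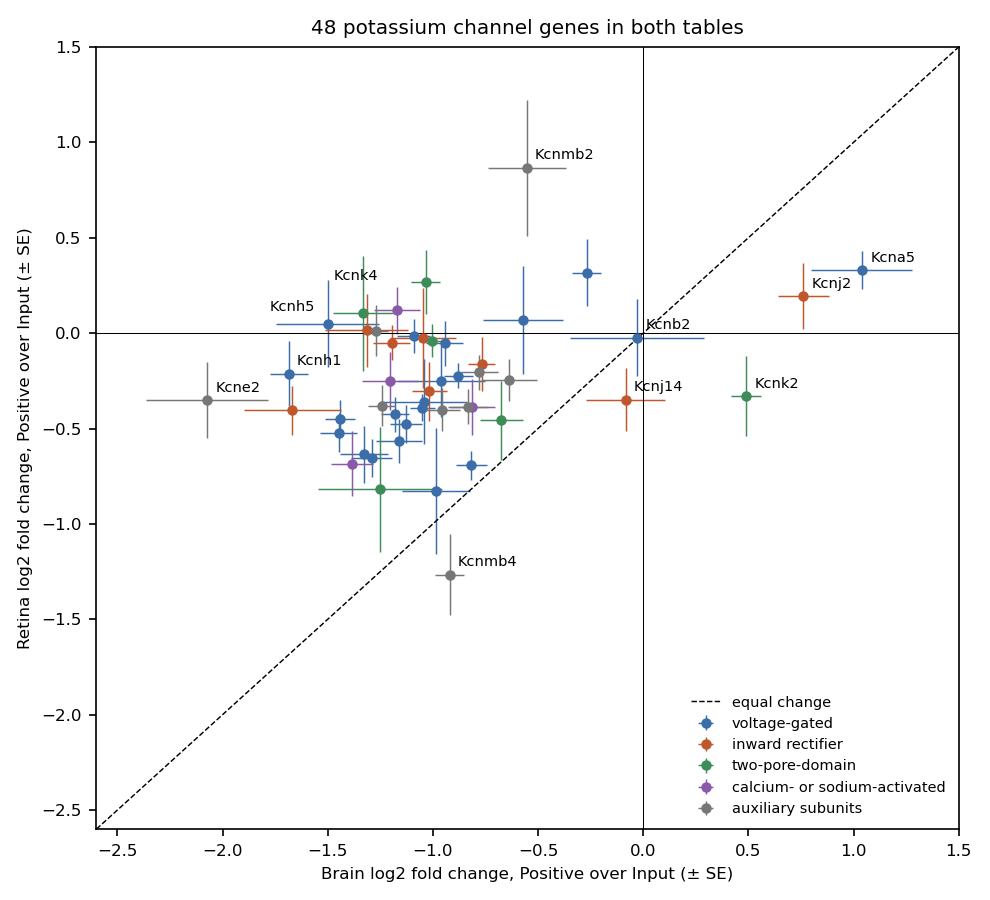
Log2 fold change of Positive over Input in Retina (vertical) against Brain (horizontal), ± SE, for the 48 potassium channel genes in both tables. Most points lie left of 0 and above the dashed line of equal change, and Kcnk2, Kcnj2, Kcna5, Kcnj14 and Kcnmb4 are among the few below that line.

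The ribosome-bound levels of Brain and Retina differed for 36 of the 48 shared members, 18 higher and 18 lower in Retina Positive. All genes had 39.2% higher and 36.4% lower, so the members' shares are near the background. Kcnj14 stood at 4.14 ± 0.884 CPM in Brain Positive and 609.7 ± 131 CPM in Retina Positive, 147-fold higher, a log2 difference of 7.20 ± 0.20 (SE, edgeR adjusted p = 2.63e-11). Its Input levels differed by 172-fold. Kcne2 was 43.3-fold, Kcnj5 16.1-fold and Kcna5 8.70-fold higher in Retina Positive, and the same genes in that order were 12.8-fold, 6.51-fold and 13.9-fold higher in Retina Input. The excess in the ribosome-bound fraction thus stood beside an excess in whole tissue. Brain listed Kcne2 and Kcnj5 through Input alone, which favours a low Brain Positive value, so their folds in Positive are given as a description.

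Lower in Retina Positive were Kcnk2, by 19.0-fold (91.9 ± 5.46 CPM in Brain and 4.75 ± 0.758 in Retina), Kcnf1, by 7.53-fold, Kcnd2, by 4.66-fold, and Kcnmb4, by 4.57-fold. Retina listed Kcnk2 through Input alone, which favours a low Retina Positive value, so its fold is given as a description. In the Input fractions 9 shared members were higher and 31 lower in Retina, against 37.8% of all genes each way. Their median log2 difference was -0.67 in Input and -0.09 in Positive. Tables were filtered separately by the authors, so these levels compare genes that passed in both.

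In Choroid 6 members were listed, and 5 of them were listed through Input alone, so each of these was below the minimum of 50 counts in at least 1 of the shallower Positive libraries. The test called 1 higher and 3 lower, against 16.3% and 20.2% of all 7569 genes. All 3 lower calls fell on members listed through Input alone, which favours a low Positive value, so they are given as a description. Kcna2 held 163, 226 and 154 CPM in Input and 32.9, 54.1 and 27.2 CPM in Positive, a log2 fold change of -2.31 ± 0.30. Kcnv2 held 35.9, 60.9 and 34.9 CPM and 4.39, 11.1 and 8.70 CPM (-2.56 ± 0.47), and Kcnh2, the ERG channel, 18.4, 28.9 and 16.1 CPM and 2.19, 9.55 and 7.54 CPM (-1.89 ± 0.61). Kcnh2 rested on 6, 6 and 13 estimated counts in Positive, and its call was lost without Choroid Input replicate 1 or 2 or Positive replicate 1 (edgeR adjusted p between 0.0727 and 0.108). Kcna1, at 38.3, 31.4 and 21.6 and 13.9, 27.1 and 20.3 CPM, and Kcnab2, at 37.5, 28.5 and 23.2 and 23.0, 15.9 and 5.22 CPM, did not pass.

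Markers of cells next to the choroid, and of other cells outside the endothelium, were lower in the same comparison. Photoreceptor markers were lower in 6 of 8, with sums of 1768, 1399 and 1876 CPM in Input and 425, 474 and 225 CPM in Positive. Pigment epithelium markers were lower in 7 of 7, with sums of 24080.0 to 40110.0 CPM in Input and 1929 to 3734 CPM in Positive. None of these photoreceptor and pigment epithelium markers was at 0. Fibroblast markers were lower in 6 of 6, melanocyte markers in 6 of 6 and mural cell markers in 6 of 7. Microglia and macrophage markers were lower in 3 of 4, astrocyte and Mueller glia markers in 3 of 5 and oligodendrocyte markers in 1 of 4. Of 5 neuron markers 3 were lower and 1 higher. All 10 endothelium markers were higher. The part of these cells in the members' values was not tested.

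**Figure D5:**
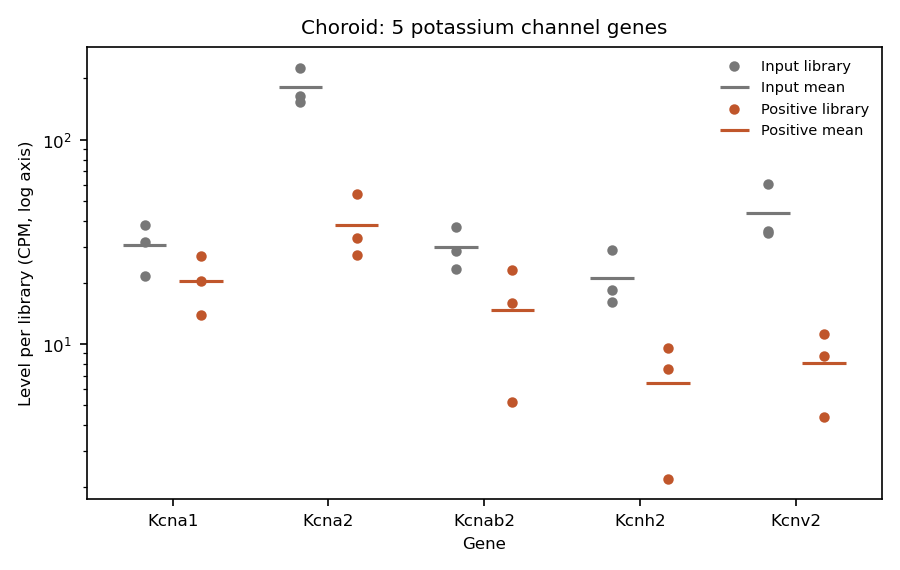
Level in each Choroid library (points, CPM on a log axis, bars are means) of 5 potassium channel genes listed there, in Input (grey) and Positive (orange). Kcna2, Kcnv2, Kcnh2 and Kcnab2 have all Positive points below their Input points, and those of Kcna1 overlap.

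The Choroid change was set against those of the other tissues for the 5 members in all 3 tables. Against Brain it was called higher for 2, among them Kcna1 (0.79 ± 0.30), and lower for Kcna2 (-0.99 ± 0.24), where 51.8% of 7270 genes were called in either direction. Against Retina it was called higher for 1 and lower for Kcna2 (-1.69 ± 0.24) and Kcnh2 (-1.73 ± 0.40), where 45.0% were called. Both comparisons share the Choroid libraries. Choroid listed Kcna1, Kcna2 and Kcnh2 through Input alone, which favours a low Choroid change, so the lower differences are given as a description. The Kcna1 call was lost when any 1 of 7 libraries was left out: Brain Input 2 or 3, Brain Positive 1 or 2, Choroid Input 3, or Choroid Positive 2 or 3 (adjusted p from 0.062 to 0.105).

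In ribosome-bound RNA, all 5 were called between Choroid and Brain and all 5 between Choroid and Retina, where the background was 58.5% and 66.8% of genes. Of these, 4 were lower in Choroid Positive than in both, from 4.82-fold (Kcna1) to 13.6-fold (Kcnab2) against Brain. Against Retina they were lower from 1.68-fold (Kcna1) to 33.2-fold (Kcnab2). Mean Input levels of these 4 were also lower in Choroid, but were not tested. In Choroid, Brain and Retina Input they were 31.5, 604 and 627.5 CPM for Kcnab2 and 32.2, 262 and 60.9 CPM for Kcna1. For Kcnh2 they were 22.3, 112 and 162 CPM, and for Kcna2 191, 525 and 221 CPM. Choroid listed these 4 genes through Input alone, which favours a low Choroid Positive value. With DESeq2 size factors the calls over all genes between Choroid and Brain Positive moved from 1832 higher and 2421 lower to 2392 higher and 1904 lower, a shift of the all-gene median by 0.17, and the 5 members kept their directions and calls.

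Partners of potassium channels, genes that move potassium, and calcium entry and other ion channel genes of endothelium were counted in 3 lists. Of 21 partners of the channels in Brain, 2 were higher and 19 lower (median log2 fold change -1.25, against -0.02 over all genes, of which 38.3% were higher and 39.7% lower), and in Retina 1 of 20 was higher and 8 lower (median -0.27, against -0.03 over all genes, of which 15.3% were higher and 10.8% lower). The exceptions in Brain were Lrrc38, a gamma subunit of the large-conductance channel, at 5.65 CPM in Input and 11.7 CPM in Positive (1.05 ± 0.15, edgeR adjusted p = 0.000108), and Kctd12, a subunit of GABA-B receptors, at 119 and 183 CPM (0.62 ± 0.07). Kctd12 also rose in Retina, from 18.9 to 96.8 CPM (2.36 ± 0.28), and in Choroid (0.83 ± 0.23). The sulfonylurea receptors Abcc8 and Abcc9, which form channels with Kcnj subunits, fell in Brain (-1.76 ± 0.15 and -1.39 ± 0.25). In Choroid 1 of 6 partners was higher and 3 lower (median -0.69, against -0.01 over all genes, of which 16.3% were higher and 20.2% lower).

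Pumps and cotransporters that move potassium had calls both ways in each tissue. In Brain 6 of 15 were higher and 8 lower (median -0.31), against 38.3% and 39.7% of all genes. In Retina 4 of 15 were higher and 3 lower (median -0.01), against 15.3% and 10.8%. In Choroid 3 of 14 were higher and 7 lower (median -0.48), against 16.3% and 20.2%. Fxyd5, a regulator of the sodium pump, rose in all 3 tissues, by 4.61 ± 0.12 in Brain, 5.44 ± 0.33 in Retina and 2.13 ± 0.22 in Choroid. The potassium-chloride cotransporter Slc12a7 rose as well (3.96 ± 0.11, 2.02 ± 0.23 and 1.05 ± 0.28), while its neuronal relative Slc12a5 fell in Brain (-1.55 ± 0.06) and Retina (-0.57 ± 0.10) and rose in Choroid (1.42 ± 0.31).

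Calcium entry and store release precede the opening of Kcnn4. The list of calcium entry and other ion channels of endothelium also had calls both ways in Brain and Choroid. Beside channels of calcium entry and release it held Stim1, Ano1 and Clcn3, so the counts are not of calcium channels alone. In Brain 5 of 11 were higher and 5 lower (median -0.15), against 38.3% and 39.7% of all genes. In Retina 4 of 9 were higher and 0 lower (median 0.40), against 15.3% and 10.8%. In Choroid 3 of 8 were higher and 3 lower (median -0.35), against 16.3% and 20.2%. Itpr3, an inositol trisphosphate receptor, rose from 9.81 to 56.3 CPM in Brain (2.52 ± 0.09), from 3.20 to 40.7 CPM in Retina (3.69 ± 0.33) and from 39.1 to 125 CPM in Choroid (1.69 ± 0.27). Orai1, the pore of store-operated calcium entry, rose in each tissue too (1.82 ± 0.10, 1.37 ± 0.30 and 1.27 ± 0.33). Trpv4 rose in Brain (1.71 ± 0.15) and Retina (1.86 ± 0.31). Itpr1, the receptor abundant in cerebellar neurons, fell in Brain (-0.67 ± 0.08) and Choroid (-0.99 ± 0.20).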

How the data were processed

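RNA from Input and Positive TRAP fractions of Brain, Retina and Choroid was sequenced in 18 libraries, 3 per group. The authors deposited estimated counts per gene in each table, beside normalized values. The deposited normalized values are on a log2 scale. Raw values divided by 1 factor per library, with a constant per gene left free, gave back at least 99.987% of them within 0.001. This covered genes with raw values above 1 in every library of a table. Whether the constant is the Input median was not checked. They served for the authors' factors alone. Per the submitters' processing notes the build was mm10 and DESeq was among the tools. Aligner, counter and use of strand: not given in the sources used here. Per the file headers, a gene was listed at 50 or more in all samples of at least 1 fraction. No value column was left without a sample.

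Expected counts as deposited were rounded and fitted per tissue with edgeR 4.0.16 (R 4.3.3, TMM scaling, quasi-likelihood test, filterByExpr with minimum count 10, where every gene passed), with Benjamini-Hochberg adjustment over all genes of the fit and a threshold of 0.05. Comparisons between tissues used genes listed in both tables (12 libraries) or in all 3 (18 libraries), so their CPM differ slightly from those within a tissue. CPM per kb used exon lengths of GENCODE M21, and promoters and coordinates came from RefSeq GRCm38.p6, the same assembly as mm10, where 100.0% of the members matched. Of the 72 members, 24 share exon bases with another gene. The fits were tested on simulated data with known changes, where small changes in Choroid were mostly missed. DESeq2 1.42.0, other scalings and filters, other thresholds, a replicate block and leaving out each library were alternatives. Input and Positive libraries of 1 number share a homogenate per the labels' protocols, and 8 of 9 such pairs had a correlation of deviations above 0.1 (range -0.0268 to 0.2933).

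Some genes are counted but not reported here by name. Each library's values are given for the largest increases and decreases past the threshold and for members that led a class. The members, marker lists and gene lists were chosen with earlier results of these data known. Precision is limited by the depth given for each group and by 3 libraries per group.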

Additional observations from a re-analysis of the deposited data

Results flagged for a closer look

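The following members differed between tissues in their change from Input to Positive, by edgeR's test of that difference. Retina minus Brain was -0.76 for Kcnk2 and -0.53 for Kcnj2, which had risen in Brain. It was 1.37 for Kcnj6, 1.45 for Kcnmb2, 1.47 for Kcnk4, 1.52 for Kcnh1, 1.59 for Kcnh5 and 1.76 for Kcne2, which had fallen in Brain. Brain listed Kcnh5 and Kcne2 through Input alone, which favours a fall there, and Retina did so for Kcnk2 and Kcnk4, so these 4 differences are given as a description. Kcnk2 had a log2 fold change of 0.49 ± 0.07 in Brain and -0.33 ± 0.21 in Retina, and Kcnj2 had 0.76 ± 0.12 and 0.19 ± 0.17.

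Choroid minus Brain was 0.79 for Kcna1 and -0.99 for Kcna2. Choroid minus Retina was -1.69 for Kcna2 and -1.73 for Kcnh2. Kcna2 had log2 fold changes of -1.18 ± 0.07 in Brain, -0.43 ± 0.09 in Retina and -2.31 ± 0.30 in Choroid. Choroid listed Kcna1, Kcna2 and Kcnh2 through Input alone, which favours a low Choroid change. The Choroid values of Kcnh2 rest on few counts in Positive (6, 6 and 13).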

How the results depend on the processing

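No called member changed sign under any alternative run. With a log2 change of at least 1 as well, Brain kept 4 higher, Retina 1 in all (0 higher, 1 lower) and Choroid 0 higher. Under that limit the Retina minus Brain difference had 15 (15 higher, 0 lower), Retina against Brain Positive 20 (10 and 10), Retina against Brain Input 26 (20 lower) and Choroid minus Brain 1 (1 higher, 0 lower). With genes above the median level alone, which leaves fewer genes to test, Brain had 31 (1 higher, 30 lower), Choroid 2 (1 lower), Retina minus Brain 22 (22 higher, 0 lower), Retina against Brain Positive 21 (11 higher, 10 lower), Retina against Brain Input 26 (19 lower) and Choroid minus Brain 1 higher. At adjusted p under 0.01, Retina had 6 (0 higher, 6 lower), Choroid 2 (0 higher), Retina minus Brain 1 lower and Choroid minus Brain 1 higher. With the replicate number as a block, which pairs libraries of 1 homogenate, Retina minus Brain had 1 lower, since Kcnj2 was lost. The block also lost Kcnn1 there and, among others, Kcnj5 in Retina. With the genes of all 3 tables alone, which hold 5 members, Retina minus Brain had 3 (3 higher, 0 lower), Retina against Brain Positive 5 (3 and 2) and Retina against Brain Input 4 (2 and 2). That set shifted the all-gene median by -0.18 and -0.16 in the first 2, and the share of higher calls from 59.1% to 37.0% in the first. DESeq2 size factors shifted it by 0.14 for Choroid minus Brain. The stricter filter shifted it by -0.32 for Choroid minus Retina, where the share of higher calls went from 48.3% to 25.6%.

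Leaving out 1 library gave 5 to 20 called members in Retina (0 to 3 higher, 5 to 17 lower), 2 to 4 in Choroid (0 to 1 higher), 64 to 66 in Brain, 1 to 2 lower for Retina minus Brain and 1 to 2 higher for Choroid minus Brain. The cause of these shifts was not tested. Among single members, 884 values in Brain and 618 in Retina kept their side of the threshold, and 30 and 78 kept direction but lost the call. Direction was compared only where the main or the alternative run made a call. Values called in neither run were counted as kept whatever their direction. Depth limits Choroid most, where members had as few as 6 counts in a Positive library.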
